A study of Mus musculus with 3 samples.

Results

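The serpins are a family of proteins that mostly inhibit serine proteases, and they are described here in whole mouse embryos that lacked maternal DNA methylation imprints. Members were all probe sets whose only symbol in the platform annotation was Serpin followed by a clade letter from a to i and a number. This gave 53 of 45037 probe sets, for 39 of 18193 genes, with 15 probe sets of clade a, 26 of clade b, 1 of clade c, 1 of clade d, 3 of clade f, 1 of clade g, 2 of clade h and 4 of clade i. Expression was measured on 3 single-channel Affymetrix arrays, each carrying RNA from pooled litter mates of mixed sex collected at 8.5 days post coitum (dpc). A single array of 6 C57Bl/6J embryos made up the normal group. The 2 mutant arrays, called mutant 1 and mutant 2 below, held 8 and 6 embryos, Dnmt3l-/+ on a C57Bl/6J background, with a Dnmt3l-/- mother and a wildtype father. Dnmt3l is a cofactor that the growing oocyte needs to set maternal methylation imprints, so the mutation acted in the mother's germline and each embryo kept a wildtype paternal allele. The arrays measure pools, not single embryos, and the labels do not say which extraembryonic membranes were collected.

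A serpin traps its protease by offering an exposed loop as bait. Cleavage of the loop makes the inhibitor fold over and drag the protease into an inactive complex. Clades a, c, d, f and g hold mainly secreted plasma proteins that hold back clotting, fibrinolysis, complement and elastase, made by the liver and, before the liver forms, largely by the visceral endoderm of the yolk sac. Clade b serpins stay mostly inside cells, clade h is a collagen chaperone of the endoplasmic reticulum with no inhibitory action, and clade i holds the neuronal inhibitor neuroserpin and a relative of it.

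The deposited values are linear array intensities, called signals below, in which every array has a trimmed mean of 500. Median signals over all probe sets were 143.6, 130.0 and 139.6 on the normal array, mutant 1 and mutant 2. Log2 ratios compare log2(signal + 31.92) in a mutant array with the normal array, where 31.92, the pseudocount, is the median over the arrays of the 20th percentile of signal. They understate the change of dim genes. With a single normal array, the limma test takes its spread from the 2 mutant arrays and cannot show whether the normal pool was typical. The p-values measure the spread between these pools.

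The promoters of 4 plasma serpins are printed here because these genes were the only members at least 2-fold higher on both mutant arrays, with that of Serpina1c, a close copy of Serpina1b, for comparison. The letters are the 250 bases before the annotated start in RefSeq (GRCm38.p6), written 5′ to 3′ on the gene's strand. Capitals mark 2 strings searched on both strands, TGTTTN, the core shared by sites of forkhead factors, and GTTAAT, part of the recognition site of HNF1, both of them factor families active in endoderm and liver.
Serpina1b, chr12:103738190-103738439, minus strand: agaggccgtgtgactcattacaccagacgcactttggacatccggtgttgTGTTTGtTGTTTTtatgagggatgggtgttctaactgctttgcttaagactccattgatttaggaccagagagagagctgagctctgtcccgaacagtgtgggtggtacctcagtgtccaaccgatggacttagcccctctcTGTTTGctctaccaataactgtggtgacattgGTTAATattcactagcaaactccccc
Serpina1c, chr12:103904951-103905200, minus strand: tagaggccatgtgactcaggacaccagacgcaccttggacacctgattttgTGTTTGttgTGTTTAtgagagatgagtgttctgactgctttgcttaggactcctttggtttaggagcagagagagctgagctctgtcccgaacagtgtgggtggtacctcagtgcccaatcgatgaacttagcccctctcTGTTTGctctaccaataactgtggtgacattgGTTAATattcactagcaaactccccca
Serpinc1, chr1:160978333-160978582, plus strand: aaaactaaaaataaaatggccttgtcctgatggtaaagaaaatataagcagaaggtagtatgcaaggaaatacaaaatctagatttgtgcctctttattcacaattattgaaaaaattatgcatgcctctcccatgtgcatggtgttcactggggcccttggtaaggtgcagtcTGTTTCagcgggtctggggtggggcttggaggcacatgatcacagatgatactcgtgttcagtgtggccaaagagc
Serpind1, chr16:17331121-17331370, plus strand: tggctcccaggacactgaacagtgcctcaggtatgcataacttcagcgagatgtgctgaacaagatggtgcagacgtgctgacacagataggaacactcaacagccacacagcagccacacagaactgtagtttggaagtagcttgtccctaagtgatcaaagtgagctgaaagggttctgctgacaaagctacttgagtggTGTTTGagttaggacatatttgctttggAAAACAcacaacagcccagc
Serpinf2, chr11:75439502-75439751, minus strand: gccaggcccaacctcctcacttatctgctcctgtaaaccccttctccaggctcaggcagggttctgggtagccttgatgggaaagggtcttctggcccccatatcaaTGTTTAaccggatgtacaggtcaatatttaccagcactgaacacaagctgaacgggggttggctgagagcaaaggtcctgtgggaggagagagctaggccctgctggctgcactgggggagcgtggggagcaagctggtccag
All 4 plasma serpin windows held TGTTTN, a string that 46.3% of 32841 annotated promoter windows of this length also held. Of the 40 windows of the whole family, 25 held TGTTTN and 6 held GTTAAT. The window of Serpinb9b, whose signal hardly differed between arrays, held TGTTTN at 6 places. GTTAAT was found only in the Serpina1b and Serpina1c windows among those printed, and in 6.43% of all windows. The strings did not overlap in these windows. TGANTCA, the site of AP-1 factors, was in the Serpina1b and Serpina1c windows too, and in 6.75% of all. The 2 Serpina1 windows were identical at 229 of 252 aligned positions (90.9%). The Serpina1e window was less like them, at 64.6% identity with Serpina1b and 63.1% with Serpina1c. The printed windows were poor in CpG, with 5 in Serpina1b, 3 in Serpina1c, 2 each in Serpinc1 and Serpind1 and 3 in Serpinf2, against a median of 6 over all windows. The window of Serpinh1, whose signal hardly differed between arrays, held 11. Other serpins that were not 2-fold higher on both mutant arrays had fewer, with 0 in Serpinb11 and Serpinb6e, 2 in Serpinb9b and Serpinf1 and 3 in Serpinb6b. The Serpinb6a windows held 2 and 20. Windows were found for 34 of the 39 members, and those of the whole family held a median of 3 CpG. A string match describes letters and was not tested as a binding site.

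Of the 53 serpin probe sets, 14 passed the filter on dim probe sets, and they measured 13 genes. No serpin gene passed limma over all probe sets, either way, with an adjusted p under 0.05. Among all 12913 genes that passed the filter, 0.728% were called higher and 0.031% lower. At an unadjusted p under 0.05, 3 serpins were higher (8.01% of all genes) and 1 was lower (4.24% of all genes). By size alone, 3 of the 13 genes were at least 2-fold higher on both mutant arrays, Serpina1b, Serpinc1 and Serpinf2, and none was at least 2-fold lower, where 3.24% and 0.635% of all genes were. The median log2 ratio of the 13 genes was 0.08, beside -0.02 over all genes, and 7 read higher on both mutant arrays (36.5% of all genes) against 2 lower (39.1% of all genes). Over all 39 genes with no filter, 4 were at least 2-fold higher on both mutant arrays (3.11% of all genes) and none was at least 2-fold lower (0.819% of all genes). The gene added was Serpind1. With no filter limma called none of the 39 (0% of all genes), and at an unadjusted p under 0.05, 4 were higher (6.87% of all genes) and 1 was lower (3.97% of all genes). In this set 18 read higher on both mutant arrays (36% of all genes) and 8 lower (37.4% of all genes), and the median log2 ratio of the 39 was 0.09. The filter uses the mean over both groups, so a gene that is bright only in the mutants passes it only if it differs. For this reason the counts over filtered genes describe the family and support nothing further.

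**Figure D1:**
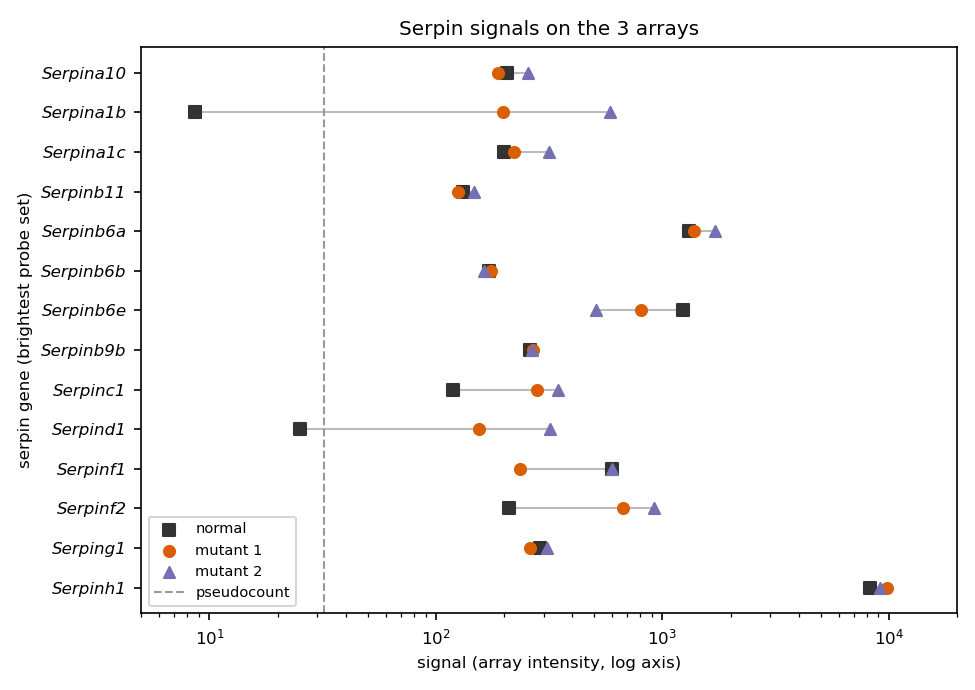
Signal of the brightest probe set of each of the 13 serpin genes that passed the filter, and of Serpind1, on the normal array (squares), mutant 1 (circles) and mutant 2 (triangles), on a log axis. The dashed line is the pseudocount of 31.92, and Serpina1b and Serpind1 lie below it on the normal array only.

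Serpina1b codes for an alpha-1-antitrypsin, the main plasma inhibitor of neutrophil elastase. Its brighter probe set read 8.60 on the normal array, 197 on mutant 1 and 585 on mutant 2. The normal signal lay under the pseudocount and both mutant signals were above it, with mutant 2 well above mutant 1. The log2 ratios were 2.50 and 3.93, with a mean of 3.21 (SE 0.62, adjusted p = 0.128 by limma). A second Serpina1b probe set, which did not pass the filter, gave the same picture, with 12.4 against 161 and 513. Both are of the type whose probes can match several copies of a gene, so the signal cannot be given to this copy alone. With the pseudocount doubled, the log2 ratio was 2.51. The mean log2 signal of the brighter probe set, 6.95, lay just above the filter's limit of 6.93, which it reached only through its mutant signals. Serpina1b was not tested with the pseudocount halved or with the filter at the 60th percentile. The same held without probe sets of the kinds that can match several transcripts.

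Serpina1c, another copy of the same inhibitor, read 200 on the normal array against 220 and 315. Its log2 ratio was 0.36 (SE 0.34, adjusted p = 0.70 by limma), and mutant 1 lay close to the normal array. A probe set that lists 2 other copies, Serpina1d and Serpina1a, read 33.3 against 70.9 and 111. One that lists 3 copies, Serpina1b itself with Serpina1c and Serpina1e, read 3.38 against 11.1 and 10.3. It lay under the pseudocount on all arrays. The copies' probe sets therefore gave different answers, from a log2 ratio of 0.27 to 3.21, and the difference between them was not tested.

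Serpinf2 codes for alpha-2-antiplasmin, the inhibitor that stops plasmin from dissolving fibrin. It read 211 on the normal array, 667 on mutant 1 and 921 on mutant 2, a mutant mean of 794 ± 179 (SD, n = 2). The log2 ratio was 1.75 (SE 0.30), with 1.53 and 1.97 on the mutant arrays. Its adjusted p of 0.104 (limma) was the lowest of the family. It passed in 1 of the alternatives, the fit on gene means over probe sets, where limma called 260 genes higher in place of 94 and gave Serpinf2 an adjusted p of 0.0288 and Serpina1b 0.0397. Serpinf2 and Serpina1b each had 1 passing probe set, so the averaging left their log2 ratios at 1.75 and 3.21. Over the alternatives with a test, the adjusted p ranged from 0.0288 to 0.274 for Serpinf2. For Serpina1b it ranged from 0.0397 to 0.339 over those in which this gene was tested.

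Serpinc1 codes for antithrombin, which inactivates thrombin and factor Xa. It read 119, 280 and 346, so that both mutant arrays lay above the normal one and close to each other, with a mean of 313 ± 46.2 (SD, n = 2). The log2 ratio was 1.19 (SE 0.31, adjusted p = 0.214 by limma). Serpind1, heparin cofactor II, a second inhibitor of thrombin, read 25.2 on the normal array, under the pseudocount, and 155 and 320 on the mutant arrays. Its log2 ratios were 1.71 and 2.62. Its mean log2 signal of 6.92 lay just under the filter's limit of 6.93, so limma did not test it in the main analysis. With no filter its adjusted p was 0.363.

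Each of these 4 genes read higher on mutant 2 than on mutant 1, by 1.43 (Serpina1b), 0.45 (Serpinf2), 0.27 (Serpinc1) and 0.91 (Serpind1) on the log2 scale. They also shared their arrays with a large difference in genes of the visceral endoderm. Of 20 listed markers of yolk sac visceral endoderm, 19 were measured and all 19 passed the filter. All 19 were at least 2-fold higher on both mutant arrays (3.24% of all genes), and 18 were called higher by limma (0.728% of all genes). These calls were lost, with all others on the array, with no filter and with no trend in the variances. On mutant 2, 14 of the 19 read higher than on mutant 1, as did 7064 of all 12913 genes. The summed signal of the 19 markers was 22371 on the normal array, 129745 on mutant 1 and 141520 on mutant 2. The lowest of them on the normal array was Fgb at 118, and their log2 ratios ran from 1.74 to 3.85 with a median of 3.00. Serpinf2 lay at the low end of that range and Serpinc1 below it. The part of yolk sac tissue in the serpin values was not tested, and in bulk RNA a change in the number of cells of a type and a change in RNA per cell cannot be told apart.

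**Figure D2:**
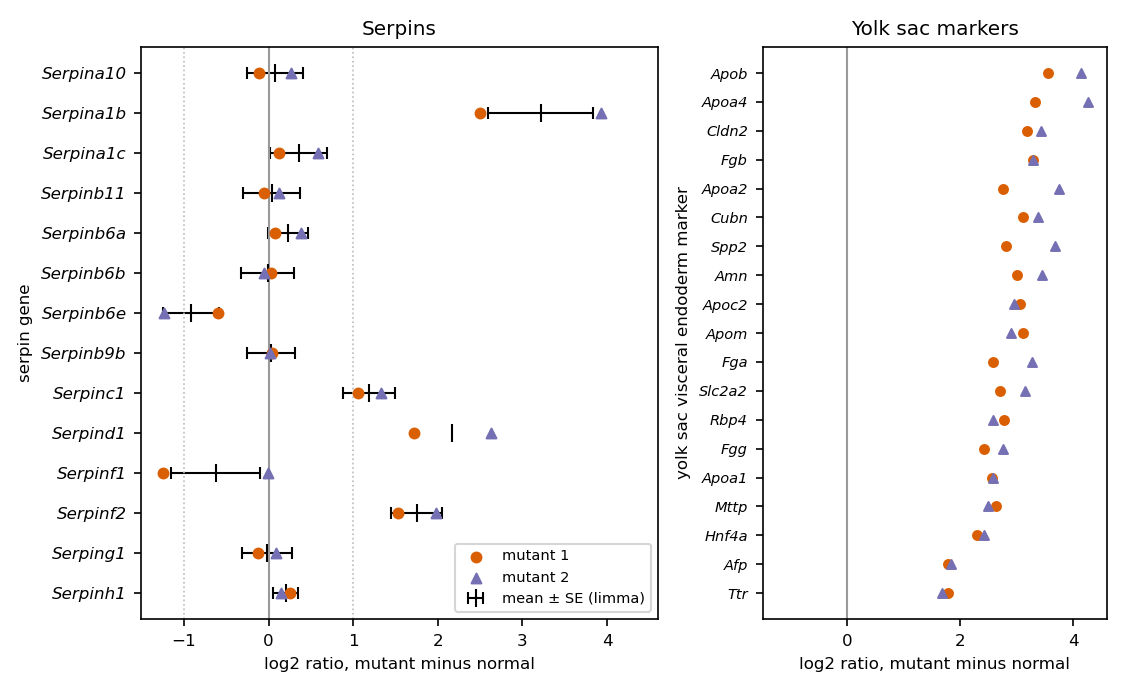
Log2 ratio of each mutant array to the normal array for serpin genes (left) and for the 19 yolk sac visceral endoderm markers that passed the filter (right). Black ticks are the means, bars are limma standard errors (none for Serpind1, which was not tested), and dotted lines in the left panel mark a 2-fold difference. Only Serpina1b, Serpinc1, Serpind1 and Serpinf2 lie beyond 2-fold on both mutant arrays among the serpins drawn, while all 19 markers do.

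Other secreted serpins read alike on the 3 arrays or differed on a single mutant array. Serping1, the C1 inhibitor of complement and contact activation, read 288, 261 and 309, a log2 ratio of -0.02 (SE 0.29). Serpina10, the inhibitor of factor Xa that needs protein Z, read 207, 188 and 256, a log2 ratio of 0.08 (SE 0.33). Neither moved beyond the spread of the mutant arrays. Serpinf1 codes for pigment epithelium-derived factor, a secreted serpin that blocks vessel growth and inhibits no protease. It read 599 on the normal array, 234 on mutant 1 and 597 on mutant 2, so mutant 2 matched the normal array while mutant 1 was lower, and the mean log2 ratio of -0.63 (SE 0.53) rests on mutant 1. Without mutant 1 it was -0.0057. The dimmer Serpinf1 probe set read 53.6, 40.9 and 23.7. In map order Serpinf1 and Serpinf2 are neighbours on chromosome 11, and their brighter probe sets had log2 ratios of -0.63 and 1.75.

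Serpinh1, the collagen chaperone also called Hsp47, gave signals of 8261 on the normal array, 9854 on mutant 1 and 9159 on mutant 2. Its log2 ratio was 0.20 (SE 0.15, adjusted p = 0.613 by limma), and a second probe set read 7147, 6649 and 8683 (0.09, SE 0.21). For the second probe set the normal array lay between the mutant arrays. Of 18 measured genes that fold and export procollagen beside Serpinh1, 17 passed the filter, none passed limma, and 3 had an unadjusted p under 0.05, all higher. Their median log2 ratio was 0.16. Kdelr3, a receptor that returns chaperones to the endoplasmic reticulum, read 192 against 797 and 834 (log2 ratio 1.92, SE 0.25, adjusted p = 0.0591), Crtap, a prolyl 3-hydroxylation subunit, had 0.82, and P4ha1, a prolyl 4-hydroxylase subunit, had 0.55.

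The intracellular clade b was the largest, with 18 genes, of which 5 passed the filter. Their median log2 ratio was 0.03, and with no filter that of all 18 was 0.06. Serpinb6a, a broadly expressed inhibitor of trypsin-like proteases and cathepsin G, read 1306, 1374 and 1706 (log2 ratio 0.22, SE 0.24). Serpinb9b, a relative of the granzyme B inhibitor Serpinb9, read 261, 269 and 265 (0.03, SE 0.28), the closest agreement between arrays of any serpin that passed the filter. Serpinb6b read 171, 176 and 163 and Serpinb11 132, 126 and 147, and for both the normal array lay between the mutant arrays. The sign of the Serpinb6b log2 ratio, -0.01, turned with median centring (0.06), quantile normalization (0.07) and cyclic loess (0.08).

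Serpinb6e was the single serpin that passed the filter with lower signals at an unadjusted p under 0.05. It read 1236 on the normal array, 809 on mutant 1 and 508 on mutant 2. The log2 ratios were -0.59 and -1.23, with a mean of -0.91 (SE 0.33, adjusted p = 0.333 by limma). Both mutant arrays lay below the normal one, and mutant 2 lay as far below mutant 1 (-0.64) as mutant 1 lay below normal. Its probe set is of the type that can match several transcripts, and the annotation gives it no accession, so which Serpinb6 copy it measured is uncertain. Serpinb6c, the gene beside it in map order, was dim, at 46.3, 62.4 and 41.7.

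Dim members made up most of the family. In all, 26 genes had no probe set that passed the filter, and 10 of these lay under the pseudocount on all arrays with every probe set. The 10 were Serpina5 (protein C inhibitor), Serpina7 (thyroxine-binding globulin), Serpina3n, Serpina9, Serpina11, Serpina12, Serpinb1b, Serpinb2 (plasminogen activator inhibitor type 2), Serpinb9d and Serpinb12. Serpina6, the corticosteroid carrier of blood, read 38.3, 32.9 and 66.0, and Serpina1f read 20.6, 15.4 and 38.8, so both lay near the pseudocount. In clade a, the remaining dim genes were Serpina3a (54.2, 9.21 and 31.1) and Serpina3i (9.98, 57.0 and 17.4), with mean log2 ratios of opposite sign, -0.76 and 0.66. In clade b the dim genes above it on at least 1 array were Serpinb1a, Serpinb3a, Serpinb5, Serpinb6c, Serpinb7, Serpinb8, Serpinb9, Serpinb9c and Serpinb9g. The 39 probe sets that did not pass had median signals of 23.7, 19.4 and 24.3 on the normal array, mutant 1 and mutant 2.

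Among these, a few showed a pattern on 1 array. Serpinb9, the inhibitor that protects cytotoxic lymphocytes from their own granzyme B, read 32.9, 38.7 and 169 with its brighter probe set and 70.2, 9.84 and 57.4 with the other, so its probe sets disagreed. Serpinb1a, the leukocyte elastase inhibitor, read 23.1, 4.54 and 62.7, and 2.92, 15.7 and 56.6 with a second probe set. Both of its probe sets were highest on mutant 2. White cell markers gave summed signals of 1323, 1298 and 1464 on the 3 arrays, with none of 8 called, and the granule proteases Elane, Ctsg, Prtn3 and Gzmb did not pass the filter. Serpini1, neuroserpin, an inhibitor of tissue plasminogen activator in the nervous system, read 98.2, 82.3 and 14.8 with its brightest probe set and 50.5, 51.5 and 53.1 with the next. Serpini2, a serpin known from pancreas, read 45.3, 79.8 and 74.4.

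Serpinb9g, of a clade b group expanded in rodents and known from placenta, read 103 on the normal array, 53.8 on mutant 1 and 14.5 on mutant 2. Its log2 ratios were -0.66 and -1.55, the lowest mean in the family (-1.10), and it did not pass the filter. A probe set that lists Serpinb9g with 3 more members of that group read 153, 151 and 190, so mutant signals were not lower there. Beside these values, the decidual gene Prl8a2 read 1376, 91.2 and 111, and Tpbpa, a spongiotrophoblast gene that did not pass the filter, read 180, 32.8 and 23.3. Other decidual genes went the other way, with Lum at 444, 749 and 2530, and Igfbp1, which did not pass the filter, at 9.48, 149 and 215. Of 12 decidual genes that passed, Prl8a2 was the only one limma called, lower. Of the 12, 7 read lower on both mutant arrays (39.1% of all genes) and 3 higher (36.5% of all genes). Their median log2 ratio was -0.25, and their summed signals were 5882, 4184 and 6287. Of 11 trophoblast genes measured, 4 passed, with summed signals of 1525, 4649 and 4296, and of these the homeobox gene Esx1 was called higher (log2 ratio 2.25, SE 0.28, adjusted p = 0.0498). The part of these tissues in the Serpinb9g values was not tested.

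In map order the family lies in 3 main clusters, and signal within them was patchy. RefSeq lists 28 serpin genes and pseudogenes on chromosome 12, 12 of them members here, and only Serpina10, Serpina1b and Serpina1c passed the filter. On chromosome 13, 11 of 17 were members, and Serpinb6a, Serpinb6b, Serpinb6e and Serpinb9b passed. On chromosome 1, 8 of 14 were members, and Serpinb11 and Serpinc1 passed, which lie apart in that order. Serpina1b with a log2 ratio of 3.21 lies between the members Serpina1f (0.14) and Serpina1c (0.36), and Serpinb6e at -0.91 lies close to Serpinb6a at 0.22. Serpina1f lay near the pseudocount. Serpina1d and Serpina1a, which lie between Serpina1b and Serpina1c, share a probe set with a log2 ratio of 0.89. The Serpina1b and Serpinb6e probe sets can match several copies or transcripts, so these contrasts cannot be given to single genes.

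**Figure D3:**
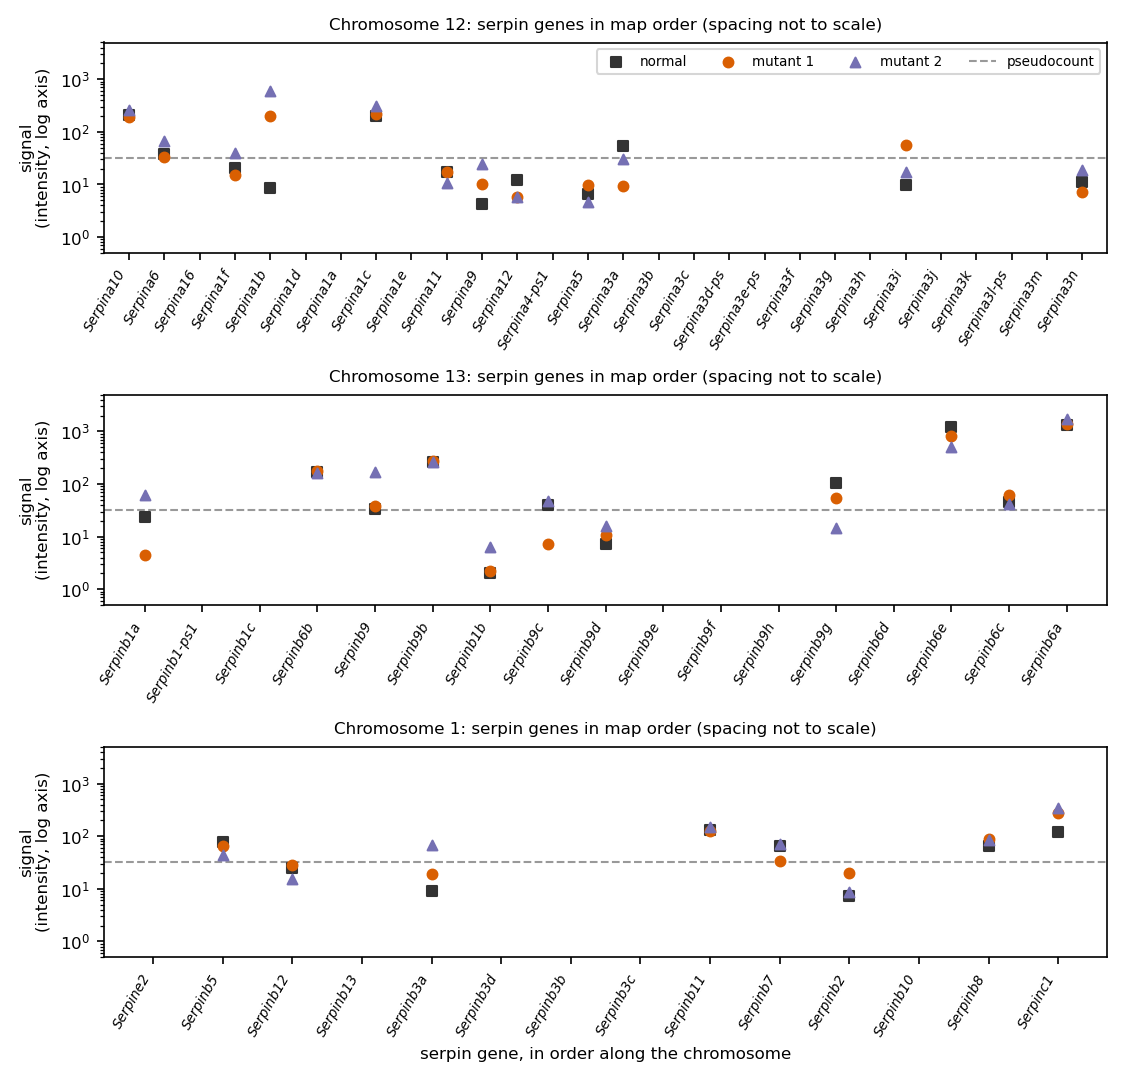
Signal (log axis) of the brightest probe set of each member, in map order along chromosomes 12, 13 and 1, on the normal array (squares), mutant 1 (circles) and mutant 2 (triangles). The spacing is not to scale, names with no points were not analysed here, and the dashed line is the pseudocount. Serpina1b has the widest spread between arrays, from 8.60 to 585, and many members lie near or under the dashed line on all arrays.

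The proteases and partners of these serpins were read from lists that group them by role. Of 13 genes of the plasminogen system that passed the filter, none passed limma and the median log2 ratio was -0.11. Plg codes for the precursor of plasmin, the target of Serpinf2. It read 25.8 against 260 and 245. Its log2 ratio was 2.30 (SE 0.33, adjusted p = 0.0681), so protease precursor and inhibitor were both higher on both mutant arrays, neither past the threshold. Lrp2, the endocytic receptor megalin of absorptive epithelia, read 643, 1714 and 1884 (log2 ratio 1.44, SE 0.22, adjusted p = 0.0793), whereas its relative Lrp1 read 1008, 1015 and 1017. The activator Plat read 590, 391 and 471 (-0.43, SE 0.27), and the matrix protease Mmp2 had -0.77.

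Clotting proteases and their partners gave 13 genes that passed the filter, none called, with a median log2 ratio of 0.36. F2, prothrombin, the target of Serpinc1 and Serpind1, read 144, 416 and 495 (1.47, SE 0.29, adjusted p = 0.134). F10, the precursor of factor Xa, read 107, 291 and 314 (1.27, SE 0.30, adjusted p = 0.186). Serpinc1, Serpind1, F2 and F10 therefore read higher in the same arrays, while Serpina10, an inhibitor of factor Xa, had 0.08. F7 (0.20), F5 (0.19) and the thrombin receptor F2r (-0.07) differed little, and 10 listed genes of this group, among them F9, F11, F12 and Klkb1, were measured but too dim. Of these, F11 read higher on both mutant arrays (12.4, 61.4 and 139). F9 differed in sign between them (59.4, 10.6 and 80.7), and F12 and Klkb1 read lower on both. Complement proteases gave 5 genes, none called, with a median of 0.21. Cfb (factor B) had 1.70 and Cfi (factor I) 1.30, while Masp1, a target of Serping1, read 289, 269 and 369.

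The granule and trypsin-like proteases gave 14 genes, with a median of 0.01. Limma called 2 of them, both higher, against 0.728% of all genes. Prss8, the channel-activating protease prostasin of epithelia, read 335, 1863 and 1572, so that it rose by 2.25 on the log2 scale (SE 0.24, adjusted p = 0.0363). Tmprss2, a membrane serine protease of epithelia, read 1159, 4432 and 4082 and rose by 1.85 (SE 0.19, adjusted p = 0.0346). Hpn, hepsin, read 125, 485 and 432 and did not pass (1.64). The list of lysosomal cathepsins, which some clade b serpins inhibit, also held Lgmn, Casp1 and Casp8, which are not cathepsins. It had 20 measured genes, of which 8 passed the filter and 12 were too dim. The 8 had a median of 1.70, and limma called 6 of them higher. With no filter the median of all 20 was 0.13, and the 11 kept where 2 of 3 arrays reached the pseudocount had 1.16. Ctsc read 743, 6155 and 7755 and rose by 3.16 (SE 0.22, adjusted p = 0.0137). Lgmn had 3.09, Ctsh 2.80, Ctsb 1.89, Ctsz 1.52 and Ctsl 1.16. Ctsd, an aspartic protease placed on the same list, read 2639, 2587 and 2284, and Casp8 had 0.50. The 6 and 2 calls were lost, as were all calls on the array, with no filter and with no trend in the variances. Of the 5 clade b genes that passed the filter, none was at least 2-fold higher on both mutant arrays. Their highest mean log2 ratio was 0.22 (Serpinb6a, SE 0.24).

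Protease inhibitors of other families went both ways. Of 21 that passed the filter, limma called 1, Spink1, a trypsin inhibitor, which read 2194, 12597 and 9505 and rose by 2.30 on the log2 scale (SE 0.21, adjusted p = 0.0269). Ambp, the precursor of bikunin, read 17.7 against 301 and 467 (3.04, SE 0.38, adjusted p = 0.0522). The broad inhibitor gene A2m read 559 against 156 and 209 (-1.48, SE 0.31, adjusted p = 0.156) and Ctla2a, a cathepsin inhibitor, had -1.85 (adjusted p = 0.0610). The plasma inhibitor genes Itih1, Itih2, Itih3, Itih4 and Ahsg, products of the later liver, were too dim to pass. Of these, Itih3 (7.85, 32.0 and 62.9) and Itih4 read higher on both mutant arrays. Itih1 and Ahsg read lower on both, and Itih2 differed in sign between them. The median log2 ratio of the 21 that passed was -0.13.

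Carriers and precursors that use the serpin fold without inhibiting gave little signal. Agt, angiotensinogen, a serpin by structure whose symbol lies outside the rule, read 12.6, 11 and 16.1. Of 4 genes of the renin system that passed the filter none was called, and Enpep, an aminopeptidase that cleaves angiotensin, had 1.17. The hormone partners of Serpina6 and Serpina7 gave 6 genes. Of these only Ttr, a thyroxine carrier that is also on the yolk sac list, was called, with 5888 against 20443 and 18964 (1.74, SE 0.14, adjusted p = 0.0185), while the glucocorticoid receptor gene Nr3c1 had -0.39.

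**Figure D4:**
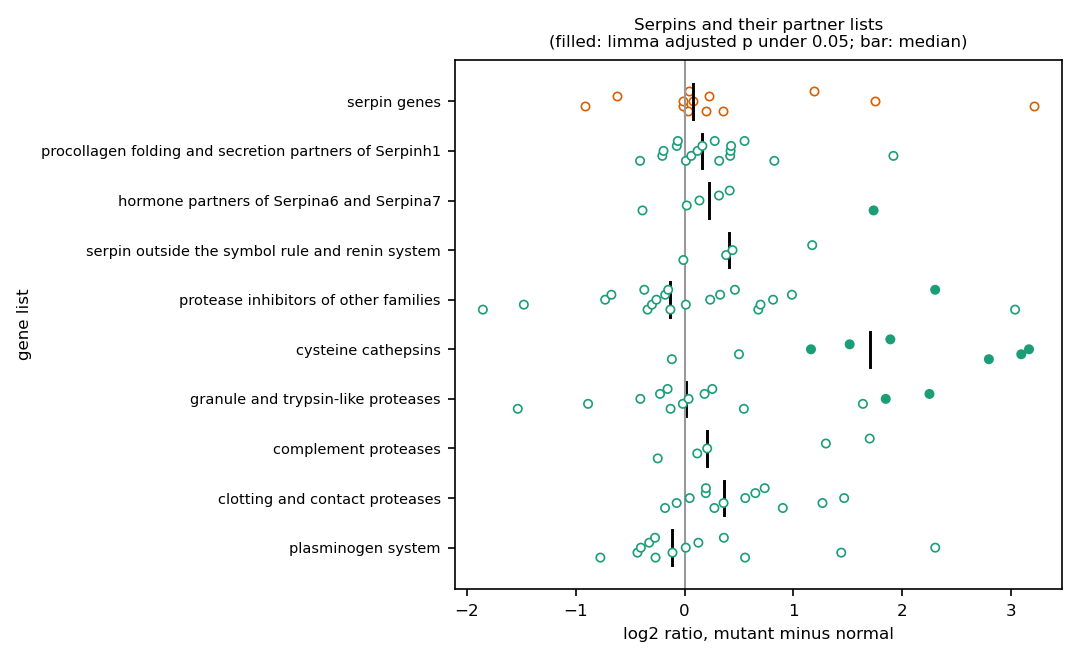
Mean log2 ratio, mutant minus normal, of each gene that passed the filter, for 9 lists of serpin partners (green) and for the 13 serpin genes (orange). Filled points have a limma adjusted p under 0.05 and the black bar is the list's median. The 8 genes drawn for the list labelled cysteine cathepsins, of 20 measured, include Ctsd, Lgmn and Casp8. They have a median of 1.70 and 6 filled points, where all 20 with no filter have a median of 0.13.

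Markers of the other tissues a whole embryo can hold were read in the same arrays. Genes of heart, neural tube and somites gave 13 that passed the filter, so the labelled tissue was present, with a median log2 ratio of -0.85, none called and 2 at least 2-fold lower on both mutant arrays. Their summed signals were 26487, 12740 and 17217. Parietal endoderm gave 14 genes, none called, with a median of 0.38 and summed signals of 18989, 24684 and 30043. Primitive erythroid genes gave 9, with a median of 1.66 and 2 called higher, and summed signals of 34216, 69265 and 70167. Megakaryocyte genes gave 4, none called, with a median of 0.12. The part of these tissues in the serpin values was not tested.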

How the data were processed

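Trizol RNA from each pool was hybridised to an Affymetrix array as biotin-labelled cRNA, per the labels' protocols. Per the submitters' processing notes, GCOS and MAS5 were used; versions and settings are not given in the sources used here. The deposited values are linear array intensity values, and tested on the values each array's mean after trimming 2% at each end was 500. Such scaling assumes like total signal in every pool. Of 45101 probe sets, 64 were controls and not used. Names came from the platform annotation, and all 53 member symbols matched the GRCm38.p6 gene table.

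To pass the filter on dim probe sets, log2(signal + 31.92), averaged within each group and then between groups, had to reach its 40th percentile over probe sets (27022 passed). Limma (version 3.58.1, R 4.3.3) was fitted to all 3 arrays with a variance trend. Tests were two-sided and Benjamini-Hochberg adjusted over these 27022, with 1 residual degree of freedom and 4.52 prior ones. Of several passing probe sets per gene, the brightest was used. The fit was tested on simulated data. Every serpin gene was named, and each partner list gave its called genes and up to 4 more, those of the same sign on both mutant arrays, ranked by the smaller of their absolute log2 ratios. Lrp1, Plat, F2r, F5, F7, Masp1 and any other gene outside this rule were picked with their values in view. The serpins and all lists were chosen with earlier results of these data known. The number of arrays limits the precision.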

Additional observations from a re-analysis of the deposited data

How the results depend on the processing

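No paired analysis was possible because the normal group has a single array. Every alternative that tests left 0 serpin genes called lower, and 0 called higher except the fit on the mean of kept probe sets, which called 2 (Serpinf2 and Serpina1b). The count at least 2-fold higher on both mutant arrays was 3 and became 1 with the filter at the 60th percentile, where 8 serpin genes were left. It was 2 with the pseudocount halved and without probe sets of the kinds that can match several transcripts. With quantile normalization and with no filter it was 4. Leaving out each mutant array in turn gave 2 to 4, and the count at least 2-fold lower went from 0 to 1, which was Serpinb6e without mutant 1 and Serpinf1 without mutant 2; neither leaves a test. The median log2 ratio of 0.08 became 0.17 with quantile normalization and 0.16 with cyclic loess, and lay between 0.034 and 0.209 when a mutant array was left out. The calls on the cathepsin list went from 6 to 0 with no filter, which tests all 20 measured genes, and to 0 with no trend. A filter on 2 of 3 arrays reaching the pseudocount, chosen after seeing the data, kept 24 serpin genes with Serpind1 at an adjusted p of 0.175 by limma. Of the 24, 4 were at least 2-fold higher on both mutant arrays. The median of all genes, -0.02, lay between 0.0002 and 0.06 under the other scalings. Over all genes limma called 94 higher and 4 lower, 170 and 7 with median centring and 260 and 16 with means over probe sets. Of lists with 0 calls, median centring called 2 plasminogen genes and 1 procollagen gene, and means over probe sets called 1 gene each of the plasminogen, procollagen, clotting and complement lists. Other inhibitors went from 1 call to 3 in both settings. The median of other inhibitors, -0.13, became 0.13 with no filter and 0.01 with means over probe sets, and that of plasminogen genes, -0.11, became 0.01 at the 60th percentile and -0.27 both with means over probe sets and without probe sets of the kinds that can match several transcripts. For signals near the pseudocount, such as those of Serpina1b and Serpind1 on the normal array, the size of a log2 ratio depends on it.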
